A study of Mus musculus with 9 samples.

Results

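The receptor activity-modifying proteins (RAMPs), their partner receptor and the adrenomedullin peptides were followed in whole mouse lung after long exposure to a tobacco aerosol. The 6 genes were Ramp1, Ramp2, Ramp3, Calcrl, Adm and Adm2. They were found by matching the RefSeq transcript given for each non-control array probe to the gene table, which gave 9 probes for the 6 genes, among 56605 probes and 22911 named genes in all. Ramp1 had 3 probes, Ramp2 had 2, and the other genes had 1 each. The set was chosen because Ramp3 was higher after both aerosols, so the Ramp3 values of CS against air and of IQOS against air are given as a description with no test.

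The lungs came from male C57BL/6J mice, 12 weeks old at the start, that breathed 3.5% aerosol of IQOS (a heated tobacco product), 3.5% cigarette smoke (CS) or fresh air for 6 months. Each of the 3 groups had 3 one-colour (Cy3) Agilent arrays of total RNA, named here IQOS 1 to 3, CS 1 to 3 and air 1 to 3. The labels do not say that each array was a separate animal, so a p-value measures the spread between these samples, which may be technical. The IQOS arrays filled a slide of their own, apart from the slide shared by CS and air, so an effect of slide cannot be told apart from that of IQOS. On each array 64.3% to 68.8% of probes were well above background and 0 spots were saturated. The lung label was checked with the signal of 8 measured lung epithelial markers, such as Sftpc and Scgb1a1. That 0 of these markers were called in any comparison does not bear on the tissue. Their summed signal, each as a multiple of the array's 75th percentile, was 1721 to 1892 in IQOS, 1854 to 1983 in CS and 1828 to 1858 in air. In whole lung RNA, fewer cells of a type and less RNA per cell cannot be told apart.

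Calcrl encodes the calcitonin receptor-like receptor, a G protein-coupled receptor that needs a RAMP to reach the cell surface and to choose its ligand. With RAMP1 it forms the receptor for calcitonin gene-related peptide (CGRP), and with RAMP2 or RAMP3 it forms the adrenomedullin receptors. These receptors signal mainly through Gs and cyclic AMP, relax vessels and tighten the endothelial barrier, and the adrenomedullin system is strongly expressed in lung endothelium.

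RefSeq promoter windows (build GRCm38.p6) were held for 5 of the 6 genes, all but Ramp2. The 250 bases before the start of 4 of them are shown because the first 3 are genes whose signal differed between exposures and Adm is the ligand gene whose window shares the marked motif. Capitals mark GCGTG or its reverse complement CACGC, the core of the sites bound by the aryl hydrocarbon receptor, a sensor of smoke constituents. Ramp3 is read from the plus strand at chr11:6658283-6658532, Ramp1 from the plus strand at chr1:91179572-91179821, Calcrl from the minus strand at chr2:84425267-84425516 and Adm from the plus strand at chr7:110627407-110627656.
Ramp3: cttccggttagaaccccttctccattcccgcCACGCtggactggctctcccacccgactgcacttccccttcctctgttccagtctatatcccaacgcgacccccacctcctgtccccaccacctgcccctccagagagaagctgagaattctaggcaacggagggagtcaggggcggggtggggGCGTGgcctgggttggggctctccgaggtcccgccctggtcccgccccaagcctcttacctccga
Ramp1: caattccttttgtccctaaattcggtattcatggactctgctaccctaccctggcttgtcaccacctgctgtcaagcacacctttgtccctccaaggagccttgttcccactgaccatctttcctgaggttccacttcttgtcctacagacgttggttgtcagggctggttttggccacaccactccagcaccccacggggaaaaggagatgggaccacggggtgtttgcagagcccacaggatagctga
Calcrl: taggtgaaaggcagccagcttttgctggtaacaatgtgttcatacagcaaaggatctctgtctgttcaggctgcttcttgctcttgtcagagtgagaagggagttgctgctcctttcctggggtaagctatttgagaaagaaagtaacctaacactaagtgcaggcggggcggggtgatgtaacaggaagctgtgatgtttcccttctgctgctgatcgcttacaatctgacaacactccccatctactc
Adm: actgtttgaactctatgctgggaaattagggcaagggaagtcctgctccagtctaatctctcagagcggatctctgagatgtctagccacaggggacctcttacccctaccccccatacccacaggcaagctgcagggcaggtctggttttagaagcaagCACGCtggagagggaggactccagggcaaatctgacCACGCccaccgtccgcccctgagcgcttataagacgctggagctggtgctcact

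The Ramp3 window held 2 matches, beginning 219 and 65 bases before the start, and the Adm window held 2, beginning 90 and 54 bases before it. The Ramp1, Calcrl and Adm2 windows held 0 matches. Of 32851 mouse promoter windows of the same length, 28.2% held at least 1 match on either strand and 8.6% held at least 2. Hypoxia-factor sites have the core ACGTG or GCGTG. The ACGTG form was searched on both strands and occurred in 0 of the 5 windows, against 16.6% of all windows. The GCGTG form is the motif marked above, so the matches in the Ramp3 and Adm windows fit this core too. TGACNNNGC, the core of NRF2 sites, occurred once in the Adm window and in 10.2% of all windows. GC content was 65.2% in the Ramp3 window, with a median of 52.4% over all windows. A match is a run of letters in these windows, and binding was not measured.

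Ramp3, which partners Calcrl in an adrenomedullin receptor, was highest in CS, intermediate in IQOS and lowest in air. Signals are given as multiples of the array's 75th percentile. The Ramp3 probe (A_55_P2101340) read 6.51, 6.82 and 7.53 on the IQOS arrays, 19.8, 11.6 and 10.6 on the CS arrays, and 2.35 and 2.71 on air 1 and air 2. The spot of air 3 was marked by the scanner software as a non-uniform outlier and was left out. With such spots kept it read 2.78. No array of one group reached the range of another, and CS 1 stood above the other CS arrays. The means were 6.95 ± 0.52 in IQOS (SD, n = 3), 14.0 ± 5.05 in CS (n = 3) and 2.53 ± 0.26 in air (n = 2).

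The log2 difference of Ramp3 was 2.41 for CS minus air, or 5.32-fold. It was 1.46 for IQOS minus air, or 2.75-fold. Among 16593 genes, each represented by its brightest tested probe, 51 had a higher difference in CS minus air and 40 had a higher difference in IQOS minus air. Ramp3 was chosen for these rises, so its ranks are a description. When each array was left out in turn, the Ramp3 difference lay between 2.13 and 2.59 for CS minus air and between 1.36 and 1.56 for IQOS minus air.

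The selection did not use the difference between the aerosols, so it was tested for all 6 genes. The IQOS and CS arrays also differed in slide and in array row. Ramp3 was 1.94-fold lower in IQOS than in CS, a log2 difference of -0.95 ± 0.23 (SE), with a limma adjusted p of 0.046. All p-values were adjusted with the Benjamini-Hochberg method over all 37258 tested probes, and a probe was called at an adjusted p under 0.05. The groups did not overlap, but the call was lost in 8 of 9 fits that left out 1 array and was kept only without CS 1. The largest adjusted p of these fits was 0.122, and the log2 difference lay between -1.13 and -0.67. The call was also lost with quantile normalization (adjusted p 0.0535), no filter on dim probes (0.0921), the replicate block (0.0909) and only the groups compared (0.0808). In the fits without air 1 or air 2, Ramp3 had a single air array, which is taken to vary like the others.

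**Figure D1:**
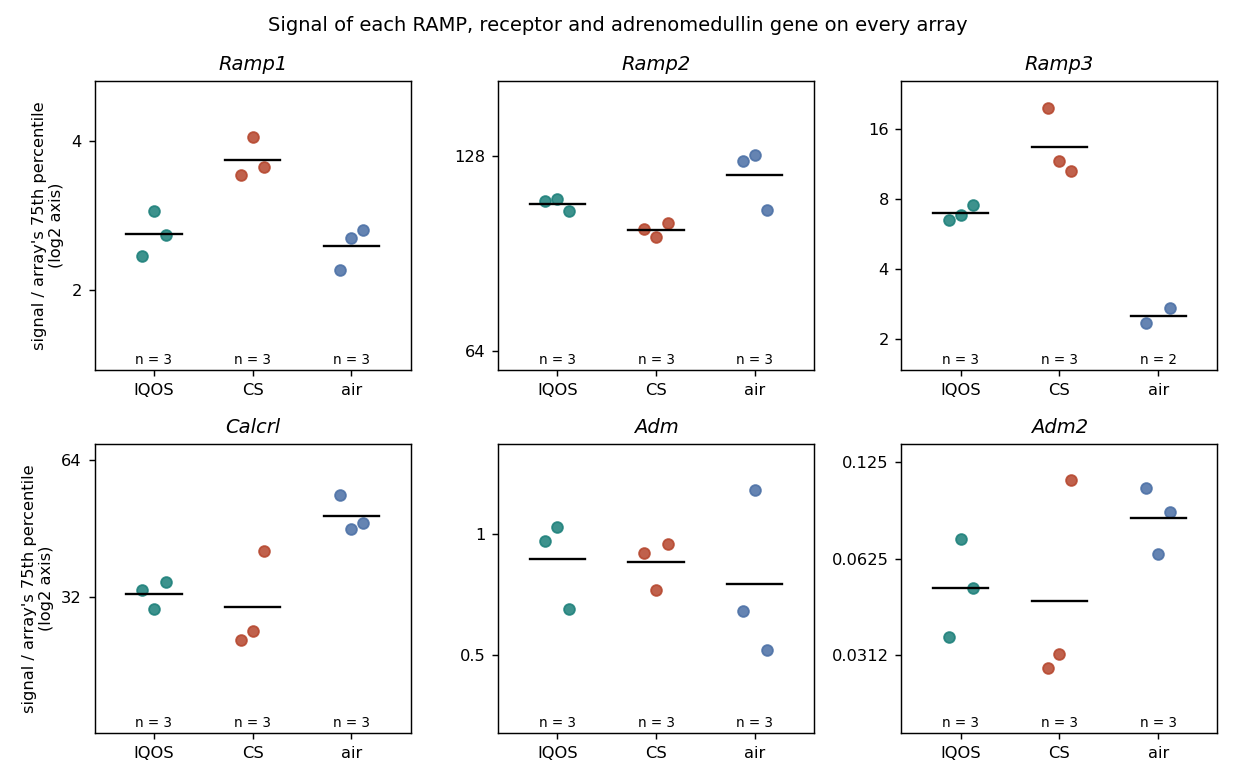
Signal of the brightest probe of each gene on every array, as a multiple of the array's 75th percentile on log2 axes that differ between panels. Each point is an array, bars are means of the log2 values, and Ramp3 has 2 air arrays. Ramp3 lies between 6.51 and 7.53 in IQOS, between 10.6 and 19.8 in CS and at 2.35 and 2.71 in air, while every IQOS and CS value of Calcrl lies below every air value.

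Ramp1, the RAMP of the CGRP receptor, was higher in CS than in air and lower in IQOS than in CS. Its brightest probe (A_51_P348665) read 2.34, 2.89 and 2.58 in IQOS, 3.42, 4.08 and 3.54 in CS and 2.20, 2.54 and 2.64 in air. All CS arrays lay above all air and all IQOS arrays, while the IQOS and air values overlapped. The difference of CS minus air was 0.58 ± 0.11 (log2, SE), or 1.49-fold, with a limma adjusted p of 0.0212. IQOS was 1.41-fold lower than CS, with a log2 difference of -0.50 ± 0.11 and an adjusted p of 0.0322.

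For IQOS minus air the Ramp1 difference was 0.08 on the log2 scale, with a 95% interval of -0.18 to 0.34 and an adjusted p of 0.715. The rise in CS was lost without air 1 or CS 2, where the adjusted p reached 0.0766. The difference between IQOS and CS was lost without CS 2, CS 3, IQOS 1 or IQOS 3, where it reached 0.0974, and also with no filter on dim probes (0.0687) and only the groups compared (0.0626). The other probes of Ramp1 were dimmer and were not called in any comparison. One of them (A_55_P1982996), designed on another transcript, read 0.153 to 0.206 in IQOS, 0.164 to 0.197 in CS and 0.151 to 0.194 in air. The other (A_52_P172014) had a log2 difference of CS minus air of 0.36 ± 0.21 (SE) with an adjusted p of 0.287. The mean of the 3 probes gave 0.33 for CS minus air with an adjusted p of 0.0686.

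Ramp2, the RAMP of the main adrenomedullin receptor of vessels, was lower in CS than in air on both probes, and only the dimmer one was called. The brighter probe (A_55_P2101336) read 109, 110 and 105 in IQOS, 98.5, 95.8 and 101 in CS and 126, 128 and 106 in air. The CS values lay below all others on this probe, and air 3 fell within the IQOS range. Its difference of CS minus air was -0.28 ± 0.08 (log2, SE) with an adjusted p of 0.0642. It was called with quantile normalization (-0.36, adjusted p 0.0266), with the mean of both probes (-0.31, adjusted p 0.0304) and without air 3 (adjusted p 0.0278).

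The second Ramp2 probe (A_66_P120927) read 15.6, 14.8 and 15.0 in IQOS, 12.1, 12.9 and 13.9 in CS and 16.9, 17.4 and 15.2 in air. CS again lay below the other groups without overlap. This probe fell by 0.35 ± 0.08 (log2, SE), or 1.27-fold, in CS against air, with a limma adjusted p of 0.0313. The call was lost without air 1, air 2, CS 1 or CS 2, with adjusted p up to 0.110. It was also lost with median centring (0.052), no filter on dim probes (0.0706), the replicate block (0.0622) and only the groups compared (0.066). For IQOS minus air the log2 difference was -0.15 on the brighter and -0.12 on the dimmer probe, with adjusted p of 0.333 and 0.385. For IQOS minus CS it was 0.13 and 0.23, with adjusted p of 0.318 and 0.104.

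Calcrl, the receptor that all 3 RAMPs accompany, was lower in both aerosol groups on every array, and the call was made for CS. Its probe (A_51_P225186) read 33.0, 30.1 and 34.4 in IQOS, 25.6, 26.9 and 40.4 in CS and 53.4, 45.1 and 46.4 in air. Neither aerosol group overlapped with air, and CS 3 stood above the other CS arrays and above the IQOS range. Calcrl fell by 0.67 ± 0.17 (log2, SE), or 1.59-fold, in CS against air, with a limma adjusted p of 0.0449. For IQOS minus air the difference was -0.57 ± 0.17, or 1.48-fold lower, and missed the threshold with an adjusted p of 0.104.

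The Calcrl call for CS depended on the arrays and settings used. Leaving out any array but CS 3 moved the adjusted p over the threshold, up to 0.143, and without CS 3 the difference was -0.88 with an adjusted p of 0.0105. The adjusted p was 0.0534 with median centring, 0.0905 with no filter on dim probes, 0.0553 with the replicate block and 0.085 with only the groups compared. The IQOS difference was called without CS 3 (adjusted p 0.0296) and with normexp background correction (-0.66, adjusted p 0.0456). IQOS and CS differed by 0.10 on the log2 scale, with a 95% interval of -0.29 to 0.49 and an adjusted p of 0.743.

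The CS arrays and air 3 lay in array row 2 of their slide, and air 1 and air 2 in row 1. The IQOS arrays all lay in row 1 of the other slide. In IQOS minus CS the groups therefore differed in slide and row as well as in exposure. With row as a covariate the CS minus air adjusted p was 0.213 for Ramp1, 0.299 for the second Ramp2 probe and 0.287 for Calcrl. Within row 2, air 3 still lay below all CS arrays for Ramp1 and above all of them for Calcrl and for both Ramp2 probes. The row term could not be fitted for Ramp3 in CS, because its air value in row 2 was left out. With that spot left out, row cannot be told apart from CS for Ramp3 in CS minus air or in the called IQOS minus CS. With outlier spots kept, air 3 read 2.78, beside 10.6 to 19.7 on the CS arrays of the same row. For IQOS minus CS of Ramp1 the adjusted p with row as a covariate was 0.564. Among the pathway genes named below, Ackr3, Gper1, Aplnr and Ndrg1 kept their call of CS minus air with this covariate. Among the cell type markers named below, Aplnr, Lmod1, Itgax, Mrc1 and Cd68 kept theirs. The other named calls of CS minus air in these lists were lost, as were all those named for IQOS minus air and IQOS minus CS. Row differed within a group only in air, so the row term rested on air 3 against air 1 and air 2. A lost call therefore does not show that row made the difference.

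Adm, the adrenomedullin precursor, showed no called difference, and its arrays overlapped in every comparison. It read 0.961, 1.04 and 0.652 in IQOS, 0.895, 0.727 and 0.946 in CS and 0.646, 1.29 and 0.514 in air (probe A_51_P265571). Air 2 gave the highest value and air 3 the lowest, so the air arrays alone spanned all others. The log2 difference was 0.18 ± 0.33 (SE) for CS minus air, with a 95% interval of -0.59 to 0.94, and 0.20 ± 0.33 for IQOS minus air, with an interval of -0.56 to 0.96. For IQOS minus CS it was 0.03, with an interval of -0.74 to 0.79. The adjusted p values were 0.764, 0.76 and 0.97.

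Adm2, which encodes intermedin, a peptide acting on the same receptors, was dim but well above background on all 9 arrays (probe A_55_P2181386). It read 0.0356, 0.0720 and 0.0509 in IQOS, 0.0286, 0.0315 and 0.110 in CS and 0.104, 0.0648 and 0.0876 in air. CS 1 and CS 2 were the lowest arrays of all and CS 3 the highest. The log2 difference was -0.86 ± 0.51 (SE) for CS minus air and -0.72 ± 0.51 for IQOS minus air, with limma adjusted p of 0.306 and 0.443. Without CS 3 the difference of CS minus air was -1.48 with an adjusted p of 0.0432. For IQOS minus CS it was 0.13, with an interval of -1.04 to 1.31 and an adjusted p of 0.895.

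Of the 5 genes tested in CS minus air, each by its brightest probe, 1 was called higher (Ramp1) and 1 lower (Calcrl), against 11.7% of 16593 genes called. In the same comparison 5.6% of genes were called higher and 6.12% lower. In IQOS minus air 0 of 5 were called by limma, with 1 at an unadjusted p under 0.05 (Calcrl), against 2.87% of genes called. In IQOS minus CS 2 of 6 were called, both lower (Ramp1 and Ramp3), against 10.1% of genes called and 5.18% called lower. Without Ramp3, the median log2 differences of the 5 tested genes were -0.28 in CS minus air and -0.15 in IQOS minus air. With Ramp3 included, the medians over the 6 genes were -0.052 in CS minus air, -0.033 in IQOS minus air and 0.063 in IQOS minus CS. Those over all genes were -0.016, -0.012 and 0.017. Of all tested probes 10.3% were called in CS minus air, 3.72% in IQOS minus air and 9.64% in IQOS minus CS. Groups did not overlap for Ramp1, Ramp2, Ramp3 and Calcrl in CS minus air, for Ramp3 and Calcrl in IQOS minus air, and for Ramp1, Ramp2 and Ramp3 in IQOS minus CS. Groups also did not overlap for 38.2%, 28.1% and 35.3% of all genes in these comparisons. Both comparisons share the air arrays.

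**Figure D2:**
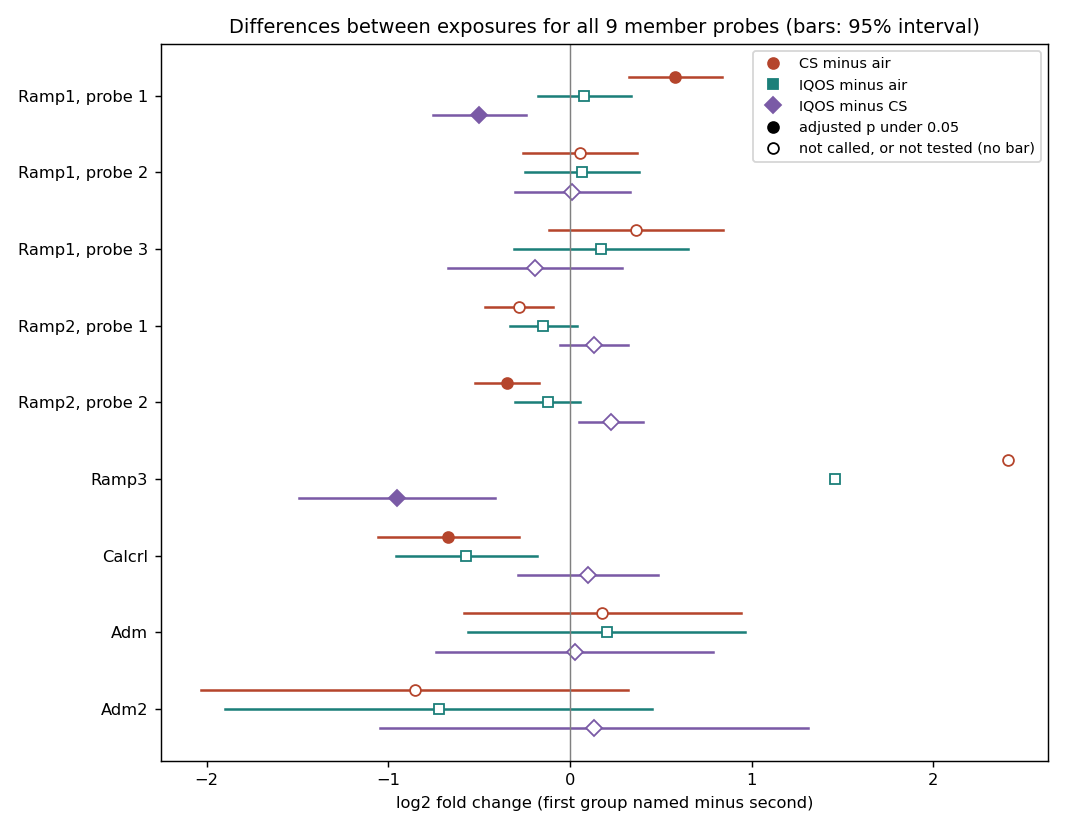
Log2 differences of all 9 probes in the 3 comparisons, with 95% intervals from limma. Filled symbols passed an adjusted p of 0.05, and Ramp3 has no interval in the comparisons used to choose it. Ramp3 lies at 2.41 for CS minus air and 1.46 for IQOS minus air, Calcrl at -0.67 and -0.57, and the Adm and Adm2 intervals cross 0 throughout.

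Of 5 calcitonin-family genes outside the set 4 could be tested. Calca, which encodes calcitonin and CGRP, was called higher in CS than in air, and 0 were called in the other comparisons. The median of these 4 genes in CS minus air was 1.004, against -0.016 over all genes. It rests on Calcb (1.29) and Calcr (0.72), which were not called (limma adjusted p 0.164 and 0.0694). Both were dim, with means of 0.065 and 0.054 in air, and Calcb was not well above background on air 2. Crcp was unchanged in CS minus air (-0.0074). In that comparison 5.6% of all genes were called higher. Calca read 2.25, 2.37 and 1.67 in CS and 0.809, 0.601 and 1.09 in air, with no overlap, and 0.932, 1.62 and 1.03 in IQOS. Its log2 difference of CS minus air was 1.36 ± 0.27 (SE), or 2.56-fold, with a limma adjusted p of 0.0246. Its second probe gave 0.67 with an adjusted p of 0.17, and the call of the first was lost without air 1, air 2, CS 1 or CS 2, with adjusted p up to 0.0838.

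Of 6 genes for peptide processing, binding and clearance, 2 were called higher and 0 lower in CS minus air, with a median of -0.09 on the log2 scale, and 0 were called in the other comparisons. The share of all genes called higher in CS minus air was 5.6%. Ackr3, an atypical receptor that takes up adrenomedullin and chemokines, read 8.77, 10.2 and 11.1 in IQOS, 18.5, 16.7 and 12.9 in CS and 6.76, 8.77 and 4.90 in air. Its CS values lay above all others, with a difference of CS minus air of 1.26 ± 0.22 (log2, SE) and an adjusted p of 0.0164. Furin, a protease that cleaves peptide precursors, rose by 0.42 ± 0.07 with an adjusted p of 0.0162. Both calls were lost without air 1 or CS 2, with adjusted p up to 0.0621 for Ackr3 and 0.0626 for Furin.

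Other receptors reported to pair with RAMPs included 8 testable genes of 11. In CS minus air 2 were called, both lower, and in IQOS minus CS 2 were called, both higher, while 0 were called in IQOS minus air. Over all genes 6.12% were called lower in CS minus air and 4.94% higher in IQOS minus CS. Gper1, a membrane receptor for oestrogen, read 0.255, 0.270 and 0.198 in IQOS, 0.139, 0.160 and 0.145 in CS and 0.318, 0.280 and 0.396 in air. CS lay below both other groups with no overlap. Gper1 fell by 1.15 ± 0.16 (log2, SE) in CS against air, with an adjusted p of 0.00784 that stayed below the threshold without any 1 array, and it was 0.69 ± 0.16 higher in IQOS than in CS with an adjusted p of 0.0326. Pth1r, the parathyroid hormone receptor, fell by 0.68 in CS against air with an adjusted p of 0.0191. Vipr2, a receptor of vasoactive intestinal peptide, was higher by 0.66 in IQOS than in CS with an adjusted p of 0.0467. The Gper1 and Vipr2 calls in IQOS minus CS were lost in 6 and 7 of 9 fits that left out 1 array, with adjusted p up to 0.0961 and 0.138, and the Pth1r call in 4, all those without an air array or CS 2 (up to 0.0642).

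Of 28 genes of Gs and cyclic AMP signalling, which acts downstream of these receptors, 1 was called higher and 2 lower in CS minus air, 0 higher and 1 lower in IQOS minus air, and 1 higher and 0 lower in IQOS minus CS. The shares of all genes called in these comparisons were 11.7%, 2.87% and 10.1%. The median log2 differences of the list were -0.061, -0.075 and 0.0018. The called genes were Prkar2b, a regulatory subunit of protein kinase A (0.29), and the adenylyl cyclases Adcy6 (-0.31) and Adcy9 (-0.28) in CS minus air. Pde4a, a cyclic AMP phosphodiesterase, was called in IQOS minus air (-0.42, adjusted p 0.0478), and Rapgef4, a cyclic AMP-activated exchange factor, in IQOS minus CS (0.39, adjusted p 0.0351). Leaving out 1 array ended the call in 5 of 9 fits for Prkar2b (adjusted p up to 0.103), 4 for Adcy6 and Adcy9 (up to 0.075 and 0.0774), 8 for Pde4a (up to 0.167) and 6 for Rapgef4 (up to 0.1).

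Among 17 other genes of vascular tone, 0 were called higher and 2 lower in CS minus air, 0 in IQOS minus air, and 1 higher and 1 lower in IQOS minus CS. The share called was 11.8% in both CS minus air and IQOS minus CS, near the 11.7% and 10.1% of all genes. Aplnr, the apelin receptor, read 0.393, 0.472 and 0.491 in IQOS, 0.217, 0.274 and 0.229 in CS and 0.699, 0.574 and 0.648 in air. The groups did not overlap. Aplnr fell by 1.42 ± 0.13 (log2, SE) in CS against air, with an adjusted p of 0.00278, and was 0.92 ± 0.13 higher in IQOS than in CS, with an adjusted p of 0.0074. Ptgir, the prostacyclin receptor, was 1.25 ± 0.16 lower on that scale in IQOS than in CS (log2 difference -1.25), with an adjusted p of 0.00583. Gucy1a1, a subunit of the nitric oxide sensor guanylate cyclase, fell by 0.58 in CS against air with an adjusted p of 0.0224, and lost the call without each of air 1, air 2, CS 2 and CS 3, the largest adjusted p being 0.0855. The Aplnr and Ptgir calls were kept without any 1 array.

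Adm is a known target of hypoxia-inducible factors, and some other genes of that response were called higher in CS. Of 19 such genes 6 were called higher and 0 lower in CS minus air, with a median of 0.16, 1 higher and 0 lower in IQOS minus air, with a median of -0.0072, and 0 higher and 6 lower in IQOS minus CS, with a median of -0.10. Over all genes 5.6% were called higher in CS minus air, 1.99% higher in IQOS minus air and 5.18% lower in IQOS minus CS. Hk2, a hexokinase, rose by 1.06 ± 0.11 in CS against air with an adjusted p of 0.00417, and Ndrg1 by 0.76 ± 0.10 with an adjusted p of 0.00655. Slc2a1, a glucose transporter, rose by 0.60 with an adjusted p of 0.0149, and Ldha, lactate dehydrogenase A, by 0.37 with an adjusted p of 0.0155. The Hk2 and Ndrg1 calls were kept without any 1 array, while those of Slc2a1 and Ldha were lost when air 1 or CS 2 was left out, reaching adjusted p of 0.0581 and 0.0654. Ndrg1 was the gene called in IQOS minus air (0.46, adjusted p 0.0438), a call lost in 7 of 9 fits that left out 1 array (adjusted p up to 0.138). Hk2 was 1.22 lower on the log2 scale in IQOS than in CS (-1.22, adjusted p 0.00199).

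**Figure D3:**
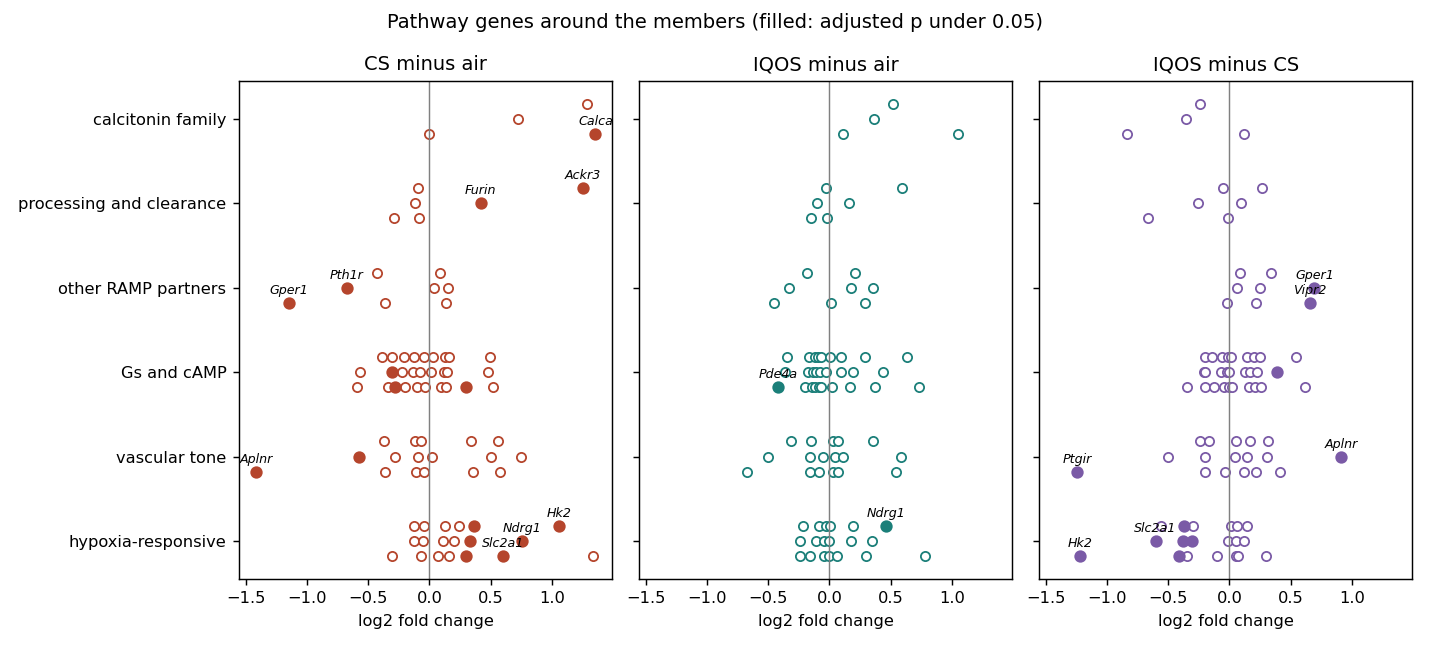
Log2 differences of pathway genes, with a panel for each of the 3 comparisons, grouped by list. Each point is a gene, represented by its brightest tested probe, and filled points passed an adjusted p of 0.05. In CS minus air Calca (1.36), Ackr3 (1.26) and Hk2 (1.06) lie to the right and Aplnr (-1.42) and Gper1 (-1.15) to the left, and in IQOS minus air the filled points are Ndrg1 (0.46) and Pde4a (-0.42).

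Marker lists of the cell types of whole lung are given beside these results. Of 16 pan-endothelial markers 2 were called lower in CS minus air, Tek (-0.43) and Ecscr (-0.42), with a median of -0.13 against -0.67 for Calcrl, and 0 were called in the other comparisons. The 2 are 12.5% of the list, against 11.7% of all genes. The summed signal of the 16 markers was 343 to 416 in IQOS, 367 to 384 in CS and 323 to 435 in air, so the groups overlapped. The Tek call was lost when air 1 or CS 2 was left out and the Ecscr call in 8 of 9 fits that left out 1 array (adjusted p up to 0.0734 and 0.137). General capillary markers had 2 of 6 called lower in CS minus air (Aplnr and Plvap), and aerocyte markers 1 of 7 (Chst1). Leaving out 1 array ended the Plvap call in 8 of 9 fits and the Chst1 call in 7, each with adjusted p up to 0.119, and the Aplnr call in 0. Of 13 smooth muscle and pericyte markers 4 were called lower in CS minus air and 0 in IQOS minus air, with medians of -0.44 and -0.23. The called genes were Lmod1, Pdgfrb, Des and Cspg4. Of all genes 6.12% were called lower in CS minus air. Leaving out 1 array ended the call in 9 of 9 fits for Des and 8 for Cspg4 (adjusted p up to 0.0987 and 0.115) and, for Pdgfrb, when air 1 was left out (0.0606), while Lmod1 was called in all 9. The sums of this list were 112 to 135 in IQOS, 91.5 to 123 in CS and 140 to 151 in air, so the CS range lay below the air range, as did that of IQOS. The arterial and venous list had 1 higher (Bmx) and 1 lower (Gja5) of 10 in CS minus air, lost in 2 and 3 of 9 fits with 1 array left out (adjusted p up to 0.0586 and 0.0742). A second, uncalled Gja5 probe gave 0.12. The part of these cell types in the Calcrl and Ramp2 values was not tested.

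Macrophage and neutrophil markers are given beside Ramp3 and Ramp1. Of 10 macrophage markers 5 were called higher in CS minus air, 0 in IQOS minus air, and 5 lower in IQOS minus CS. They were Marco, Itgax, Chil3, Mrc1 and Cd68 in both cases, and 0 markers of the list were too dim to test. Of all genes 5.6% were called higher in CS minus air and 5.18% lower in IQOS minus CS. The Marco call in IQOS minus CS was lost in 3 of 9 fits with 1 array left out (adjusted p up to 0.0583), and those of the other markers in both comparisons were kept in all fits of that kind. With array row as a covariate all 5 calls in IQOS minus CS were lost (limma adjusted p 0.0888 to 0.324). The Marco and Chil3 calls in CS minus air were then also lost (0.0514 and 0.0528). The macrophage sum was 190 to 216 in IQOS, 313 to 388 in CS and 167 to 186 in air. Much of it was Chil3, with means of 94.0 in IQOS, 205 in CS and 79.4 in air. The markers not called in CS minus air lay between -0.09 (Siglecf) and 0.33 (Lyz2) on the log2 scale. The list median was 0.52 in CS minus air and 0.075 in IQOS minus air. Of 7 neutrophil markers 1 was called higher in CS minus air, Il1r2 (3.50), with sums of 174 to 430 in IQOS, 332 to 737 in CS and 183 to 229 in air. The IQOS range of these sums overlapped with both others, and the Il1r2 call was lost when air 1 or CS 2 was left out, reaching an adjusted p of 0.0654. The part of these cells in the Ramp3 and Ramp1 values was not tested. Neuroendocrine markers, relevant to Calca, had 0 of 7 called in CS minus air and 0 in IQOS minus air, and 1 called higher in IQOS minus CS. That gene was Syp (0.26, adjusted p 0.0406), which lost the call in 9 of 9 fits with 1 array left out (up to 0.114). Lymphatic markers, a cell type rich in Calcrl and Ramp2, had 1 of 6 higher in CS minus air (Lyve1), 2 in IQOS minus air (Flt4 and Reln) and 2 in IQOS minus CS (Mmrn1 and Ccl21a). The shares of all genes called higher in these comparisons were 5.6%, 1.99% and 4.94%. Each of these 5 calls depended on the arrays used, and with 1 array left out it was lost in 5 of 9 fits for Lyve1 (adjusted p up to 0.107), 6 for Flt4 (0.122), 8 for Reln (0.146), 7 for Mmrn1 (0.0847) and 8 for Ccl21a (0.108). Of 6 fibroblast markers Col1a1 was called lower in CS minus air (-0.93) and higher in IQOS minus CS (0.61). The second call was lost in 7 of 9 fits with 1 array left out (adjusted p up to 0.1). Of all genes 6.12% were called lower in CS minus air and 4.94% higher in IQOS minus CS. The list medians in these comparisons were -0.40 and 0.36. The fibroblast sums were 76.2 to 84.0 in IQOS, 56.9 to 69.2 in CS and 77.1 to 87.4 in air. Of 6 cardiac muscle markers 0 were called in any comparison. Their sums were 151 to 229 in IQOS, 91.9 to 156 in CS and 124 to 227 in air. The median log2 difference of these markers was -0.46 in CS minus air, 0.034 in IQOS minus air and 0.48 in IQOS minus CS.

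Genes were ranked by how closely their log2 signal, centred over arrays, followed each called gene and Ramp3. Likeness was the root mean square difference, in log2 units, over the arrays with a value. For Ramp3, over 8 arrays and 16518 genes, the 5 nearest were Has3, Lrrc66, Pmvk (0.366), Gm36841 (0.377) and AU040972 (0.384), against a median of 0.988 for all genes. Has3 and Lrrc66 were well above background on 2 of 3 IQOS and 0 of 3 air arrays and entered the ranking through CS alone. Their place rests in part on signals not well above background, so no likeness is given for them. Pmvk encodes phosphomevalonate kinase of the mevalonate pathway. Pmvk read 30.7, 33.8 and 25.2 in IQOS, 51.9, 53.2 and 43.4 in CS and 13.0, 16.2 and 13.3 in air, with no overlap between groups. It was picked for its likeness to Ramp3, so this order of groups is a description and no separate result.

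For Calcrl, over 9 arrays and 16501 genes, the nearest were the transcription factors Foxf2 (0.103) and Meis1 (0.117) and G0s2, an inhibitor of lipolysis (0.125), against a median of 0.378. Foxf2 read 1.43, 1.63 and 1.56 in IQOS, 1.27, 1.34 and 1.83 in CS and 2.47, 2.15 and 1.97 in air, with CS 3 the highest CS array as for Calcrl. Foxf2 was picked for this likeness, so its values too are a description. For Ramp1 the nearest were Cracd (0.0883), Sdcbp2 (0.0916) and the transcription factor Runx1 (0.0921), against a median of 0.329.

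**Figure D4:**
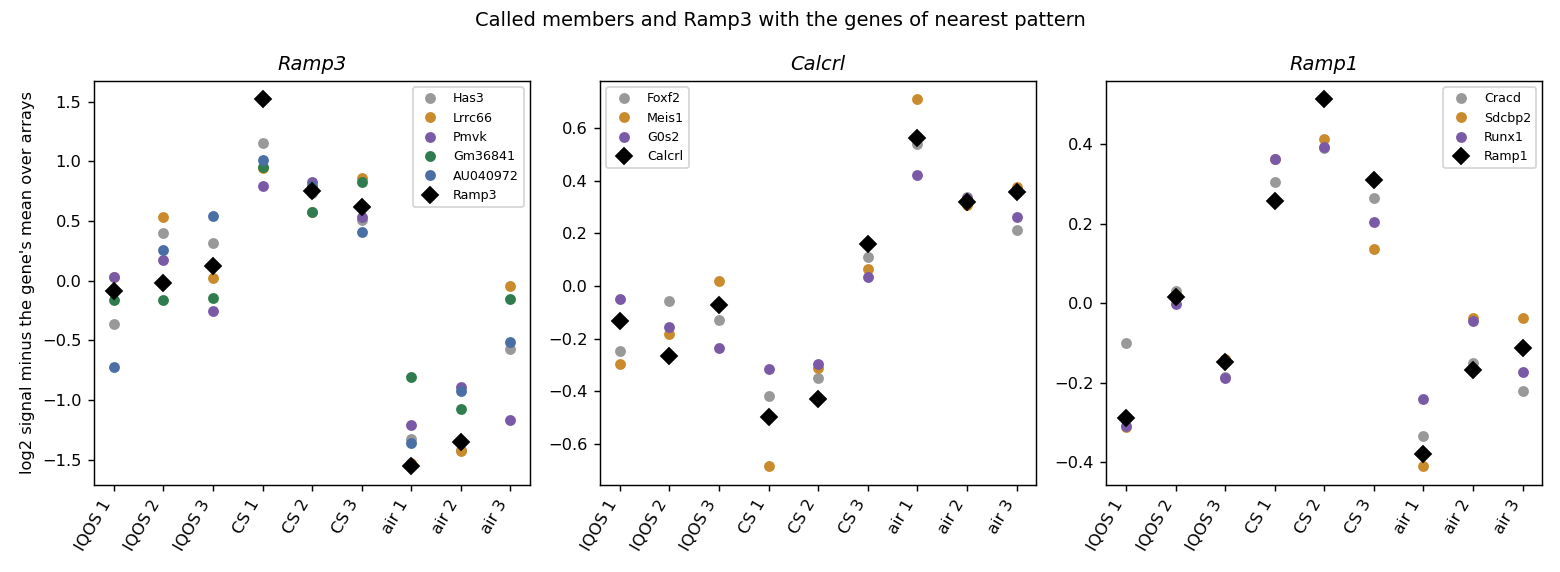
Log2 signal of Ramp3, Calcrl and Ramp1 (black) and of the genes nearest in pattern to each, on every array, after subtracting each gene's mean over the arrays where the named member has a value. Arrays run from IQOS to CS to air. Among the black points, those of Ramp3 are highest in CS and lowest in air, those of Calcrl are highest in air, and those of Ramp1 are highest in CS.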

How the data were processed

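Total RNA of whole lung was hybridised to one-colour Agilent arrays in 9 samples. The authors extracted the spot intensity values with Agilent Feature Extraction, version 10.7.1.1 (per the file headers), which subtracts and detrends the background and leaves arrays unscaled. In the deposited matrix of the series each value is a linear ratio of the signal to the 75th percentile of its array. That scale was found from the values, and the matrix served as an alternative. The array design used build mm9, and probe transcripts were matched to RefSeq genes.

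Outlier spots were dropped, repeated spots of a probe were averaged as log2 values, and the log2 75th percentile of non-control probes (973.3 to 1098 intensity units) was subtracted per array. Testing needed values on at least 2 arrays in every group and, in 1 group or more, a signal well above background on all its measured arrays, met by 37258 of 56605 probes. The 3 comparisons were fitted over all 9 arrays together with lmFit and eBayes of limma 3.58.1 (R 4.3.3). The fit was tested on simulated data. The probe of highest mean signal represented a gene. The number of arrays and the signal over background limit precision.

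The genes of the set, the lists and the tests were chosen with earlier results of these data known. Named are the set with every probe, up to 4 called genes of smallest p per list and comparison, the 5 genes nearest to Ramp3 and the 3 nearest to each other called member.

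Alternatives were normexp correction (offset 50, median signals), quantile normalization, median centring, 2 other filters on dim probes (none, or every array above background), the deposited matrix, a replicate block, array row, only the groups compared, the mean of a gene's probes, each array left out and, chosen after seeing the data, outlier spots kept. Slide was confounded with IQOS and was not fitted.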

Additional observations from a re-analysis of the deposited data

How the results depend on the processing

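Signal over background and 3 arrays per group limit these values, and several calls sit close to the threshold. Ramp3 was chosen for its rise against air, so its direction there is a description. That direction held under every alternative in which it could be fitted. Probes called in CS minus air were 3840, and 1541 with no filter on dim probes, 311 with array row as a covariate and 728 to 3304 when 1 array was left out. In IQOS minus air they were 1387, and 2608 with normexp, 780 with median centring, 356 with no filter, 287 with array row, 408 with only the groups compared and 129 to 1098 with 1 array left out. In IQOS minus CS they were 3590, and 1658 with no filter, 83 with array row, 1710 with only the groups compared and 1290 to 3253 with 1 array left out.

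Of the genes of the set, 2 were called in CS minus air, against 1 with median centring, no filter, the replicate block or only the groups compared, 0 with array row, 3 with quantile normalization and 0 to 3 with 1 array left out. In IQOS minus air 0 were called, against 1 with normexp and 0 to 1 with 1 array left out. In IQOS minus CS 2 were called, against 1 with quantile normalization, the replicate block or the mean of probes, 0 with no filter, array row or only the groups compared and 0 to 2 with 1 array left out. The cause of these changes was not tested. With no filter more probes were tested, and the smaller fits held fewer arrays. For Ramp3 in IQOS minus CS the adjusted p lay between 0.0225 and 0.0921 over the other alternatives.

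Small uncalled differences turned sign. In IQOS minus CS these were Adm2 with normexp (-0.035), the Ramp1 probe A_55_P1982996 with quantile normalization (-0.016), median centring (-0.011) and array row (-0.28), and with array row also the Ramp2 probe A_55_P2101336 (-0.13) and Adm (-0.80). In IQOS minus air with array row they were the Ramp1 probe A_55_P1982996 (-0.029) and Adm (-0.072). With 1 array left out, CS minus air ranged from -0.043 to 0.14 for that Ramp1 probe and from -0.098 to 0.56 for Adm, and IQOS minus air from -0.029 to 0.19 and from -0.072 to 0.59. IQOS minus CS ranged from -0.080 to 0.13 for it, from -0.41 to 0.040 for the Ramp1 probe A_52_P172014, from -0.021 to 0.31 for Calcrl, from -0.10 to 0.23 for Adm and from -0.21 to 0.76 for Adm2.

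Deviations from group means of same-numbered arrays correlated between -0.079 and 0.201, and 4 of 9 pairs were over 0.1, so the numbers were not taken as pairs. The replicate block left 540 probes called in IQOS minus air.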
